A study of Mus musculus with 34 samples.

Results

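The spliceosome removes introns from pre-mRNA and is assembled from small nuclear ribonucleoproteins (snRNPs), each built on a small nuclear RNA. Sm proteins form a ring on the U1, U2, U4 and U5 RNAs, and some of the Lsm proteins form the related ring on U6. U2AF reads the 3′ splice site, and SF3A and SF3B are parts of the U2 snRNP. The Prp proteins include scaffolds, U4/U6 and U5 components and U1-associated factors. Most core proteins of the spliceosome are needed in every cell, since most introns depend on them. The 50 core spliceosome genes described here are those of the 52661 genes in the expression table whose symbols begin with Sf3a or Sf3b and a number, Snrp, U2af, Prpf, or Lsm and a number, leaving out names that hold -ps. By role they were 13 Lsm genes, 13 Prp genes, 9 genes of SF3A and SF3B, 8 genes of the Sm ring, 4 genes of proteins specific to the U1 or U2 snRNP and 3 U2AF genes. The Lsm genes include some outside the U6 ring, such as Lsm1, Lsm11 and Lsm14b, and all counts and medians include these. The rule used names and no measured value. Snrnp70, Snrnp200 and other spliceosome genes whose symbols begin with Snrnp fell outside it.

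The study asked how small molecules that raise or lower the inclusion of neuronal microexons act on splicing and gene expression. PolyA+ RNA-seq was made from N2A cells, a mouse neuroblastoma line, treated for 24 h, with all cells including the controls in 0.4% DMSO. The 34 libraries comprised 3 with DMSO alone (A, B and C), 2 for each of 4 histone deacetylase (HDAC) inhibitors, namely BRD4884, BRD6688, CI-994 and Vorinostat/SAHA (A and B), and 1 for each of 23 other compounds. The study classes 17 of the 27 compounds as activators of microexon inclusion and 10 as inhibitors, and used different concentrations for different compounds. The single-library activators were A-443654, NVP-AEW-541, Trametinib, Crenolanib, SCH-772984, GNF-5837, BTB12021, BTB13120, RDR00572, S02045, BTBS00065, SEW06315 and RH01954. The inhibitors were 5-azacytidine, MK-1775, AW00693, SPB00858, JFD00822, T5635931, T5758020, T5963258, T5985871 and a compound known by a catalogue number alone. Every comparison uses the same DMSO libraries, so no comparison is independent of another.

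Junction reads per library ranged from 17.7 M to 40.6 M, lowest in Vorinostat A and highest in DMSO A. Summed RPKM (reads per kilobase of transcript, scaled to library size) over 11 neuroblastoma markers ranged from 774.6 to 1824.7 across conditions, and over 8 markers of immune, fibroblast, endothelial, astrocyte, liver and epithelial cells from 0.97 to 18.5, highest with CI-994. All 11 neuroblastoma markers were above 0 in DMSO. Whether these marker shifts have a part in the results below was not tested. In bulk RNA, fewer cells of a kind and less RNA per cell cannot be told apart.

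All 50 genes were expressed in DMSO, at 5.18 to 377 RPKM with a median of 91.3. Lsm7 was the highest and Lsm11, a component of the U7 snRNP that processes histone pre-mRNAs, the lowest. RPKM is a single merged value per condition, so its ratios have no replicate check. A gene was counted as lower or higher when it differed more than 2-fold from DMSO, on the scale log2 of RPKM + 0.5, with more than 5 RPKM in either condition. On this scale the HDAC inhibitors had the lowest levels of the core spliceosome genes. With CI-994, 33 of 50 were lower and 0 higher, beside 26.1% of all genes counted as lower and 10.2% as higher. With Vorinostat 27 were lower and 0 higher (22.5% and 10.4% of all genes), with BRD6688 14 and 0 (6.75% and 5.14%), and with BRD4884 8 and 0 (4.42% and 5.29%).

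The level of most genes was somewhat lower with these compounds on the RPKM scale, and the core spliceosome genes lay below that shift. The median log2 ratio of the 50 genes was -1.35 with CI-994 against -0.53 over all genes above 5 RPKM, and -1.05 against -0.44 with Vorinostat. It was -0.68 against -0.22 with BRD6688 and -0.71 against -0.30 with BRD4884. Relative to the median gene, 43 of the 50 were lower with CI-994, 41 with Vorinostat, 41 with BRD6688 and 45 with BRD4884. Centring on that median reduced the number of 2-fold falls summed over the 4 compounds from 82 to 51.

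**Figure D1:**
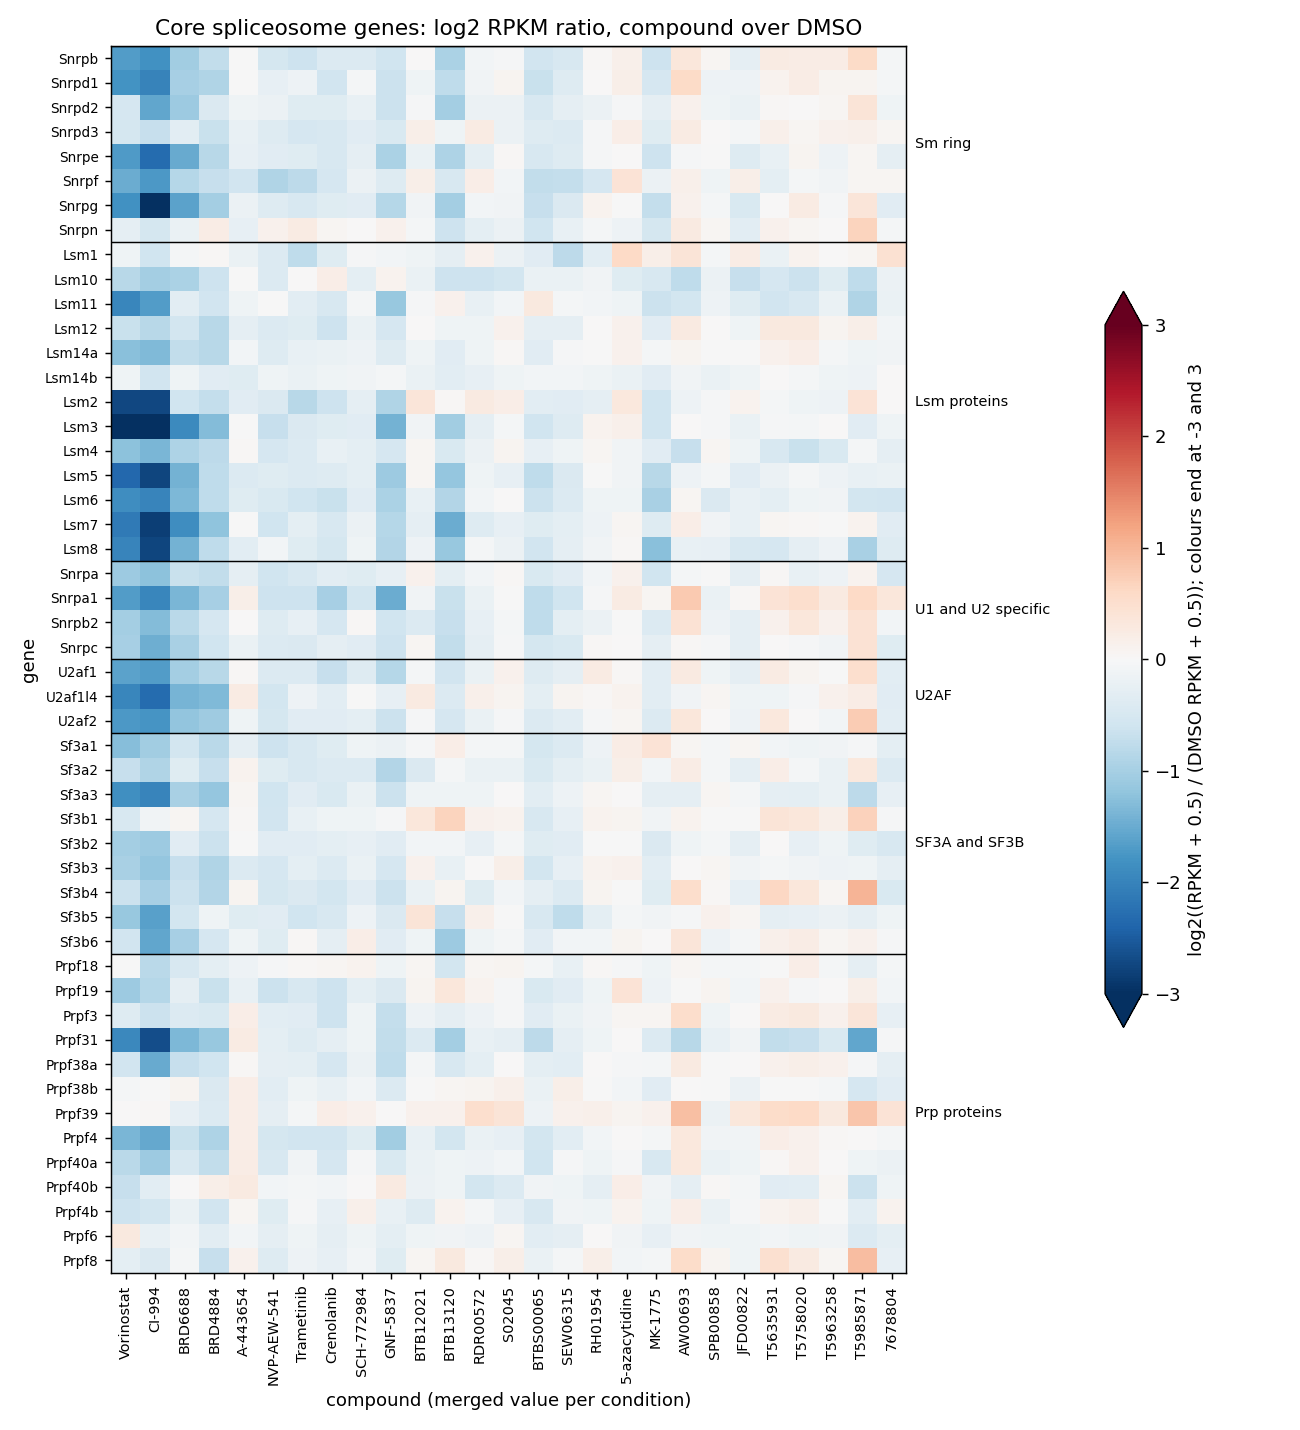
Log2 ratio of RPKM + 0.5 in each of 27 compounds over DMSO (columns) for the 50 core spliceosome genes (rows, grouped by role), with blue for lower and red for higher than DMSO and the colours ending at -3 and 3. The 4 HDAC inhibitors at the left hold most of the dark blue cells, and 35 of the 50 genes have their lowest ratio with CI-994.

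Several Lsm and Sm ring genes were far lower in RPKM with CI-994 than in DMSO. Lsm3, a subunit of both the nuclear U6-binding ring and the cytoplasmic ring that promotes mRNA decay, was at 146 RPKM in DMSO. It was at 9.12 with CI-994, 18 with Vorinostat, 38.6 with BRD6688 and 59.0 with BRD4884, so that it was lowest with CI-994 at a log2 ratio of -3.93, the lowest ratio of any of the 50 genes in any compound. Snrpg, the Sm-G protein, went from 71.6 RPKM in DMSO to 8.59 with CI-994 (-2.99). Lsm2, another subunit of both Lsm rings, was at 63.3 RPKM in DMSO, 9.21 with CI-994 and 9.17 with Vorinostat, but at 41.9 with BRD6688 and 38.2 with BRD4884. Lsm3, Snrpg and Lsm2 had the widest ranges of log2 ratio over the 27 compounds. Lsm14b, a cytoplasmic RNA-binding protein of the wider Lsm family, and Prpf38b and Prpf6 had the narrowest.

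By role, the median log2 ratio with CI-994 was -1.77 over the Sm ring, -1.76 over U2AF, -1.68 over the Lsm genes, -1.39 over the U1 and U2 specific genes, -1.10 over SF3A and SF3B and -0.65 over the Prp genes. With Vorinostat the Lsm genes had the lowest median (-1.87), followed by U2AF (-1.72) and the Sm ring (-1.58), and the Prp genes again lay nearest the median gene (-0.57). U2AF had the lowest median with BRD6688 (-1.18, against -1.02 over the Sm ring and -0.93 over the Lsm genes) and with BRD4884 (-1.06, against -0.72 and -0.77). All 3 U2AF genes were lower with CI-994, Vorinostat and BRD6688. A group of 7 genes was lower more than 2-fold with all 4 HDAC inhibitors: Lsm3, Lsm7, Prpf31, Snrpa1, Snrpg, U2af1l4 and U2af2. Prpf31 is a U4/U6 snRNP protein, Snrpa1 encodes the U2-specific protein A′, U2af2 the large U2AF subunit that binds the polypyrimidine tract and U2af1l4 a paralogue of the small subunit. Another 16 were not counted as lower with any of the 4, among them Prpf8, the central U5 protein of the catalytic core, Sf3b1, the large SF3B subunit that contacts the branch site, and Prpf6, Prpf38b, Prpf39 and Prpf40b. The shares of all genes lower with all 4 compounds, or with none of them, were not taken.

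Over all genes, length moved with these values most clearly for CI-994 and BRD6688. Of the 50 genes, 10 had a longest coding transcript under 1000 nt in the GENCODE vM21 annotation. Across all genes above 5 RPKM in DMSO, the median log2 ratio with CI-994 was -1.17 for the 439 genes under this length and -0.49 for the 8101 others. With BRD6688 the 2 medians were -0.85 and -0.19. The 10 short core spliceosome genes had medians of -2.30 with CI-994 and -1.19 with BRD6688, and the 40 longer ones had -1.12 and -0.54. With Vorinostat short and long genes were closer to each other, at -0.59 and -0.42, while the short core spliceosome genes were at -1.88. With BRD4884 short and long genes were at -0.33 and -0.30, and the short and longer core spliceosome genes at -0.78 and -0.66. Transcript length was not tested for its part in the falls. Many small Sm and Lsm genes are known to have processed copies elsewhere in the genome, and whether reads were shared with such copies was not tested.

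Because RPKM has 1 value per condition, a measure with replicates was made from the deposited junction reads. The splicing data hold exon-exon junction reads for each intron they list. These reads were summed per gene and library and expressed per 1000000 such reads of the library (junction RPM). The sum covers the listed introns only, from 1 (Lsm5, Lsm7, Sf3b4, Snrpa, Snrpd2 and Snrpf) to 41 (Prpf8). The part of splicing of these introns in the sum was not tested. The 8 HDAC inhibitor libraries were compared with the 3 DMSO libraries with limma across 10265 genes. The test was added after the RPKM values had been seen. A gene was called at an adjusted p under 0.05 and at least a 2-fold difference. Of the 50 genes, 40 had a listed intron and so a junction value. Lsm8, Lsm10, Lsm12, Sf3b5, Sf3b6, Snrpc, Snrpd1, Snrpe, Snrpg and U2af1 had no listed intron and so no such value. Among the DMSO libraries the 40 genes had a median coefficient of variation of 3.47% (0.292% to 13.1%). The study describes 2 biological replicates for DMSO and for each HDAC inhibitor, whereas 3 libraries are labelled DMSO and all 3 were used. The p-values measure the spread between these libraries.

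With CI-994, 21 of 40 were called lower and 0 higher by limma, beside 13.8% of all genes called lower and 19.9% called higher. With Vorinostat 16 were called lower and 0 higher (13.9% and 19.7% of all genes), with BRD6688 10 and 0 (2.74% and 15.1%), and with BRD4884 2 and 0 (0.692% and 16.2%). Without the fold threshold, 36 genes fell and 1 rose with CI-994, beside 37.5% and 40.1% of all genes. The numbers were 27 and 2 with Vorinostat (36.3% and 40.4%), 29 and 1 with BRD6688 (25.9% and 40.5%), and 26 and 2 with BRD4884 (20.6% and 40.2%). The junction scale does not carry the overall fall of RPKM, since the median log2 difference of all genes was 0.03 with CI-994, 0.04 with Vorinostat, 0.12 with BRD6688 and 0.14 with BRD4884, and that of the 40 genes -1.07, -0.71, -0.45 and -0.39. All 8 HDAC inhibitor libraries lay below all 3 DMSO libraries for 23 of the 40 genes, beside 20.5% of all genes. Of the genes lower in RPKM that had junction reads, 19 of 24 were also called lower with CI-994 at 2-fold (limma), 15 of 21 with Vorinostat, 9 of 10 with BRD6688 and 2 of 7 with BRD4884. Both measures come from the same libraries, so this is a description and not independent support.

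**Figure D2:**
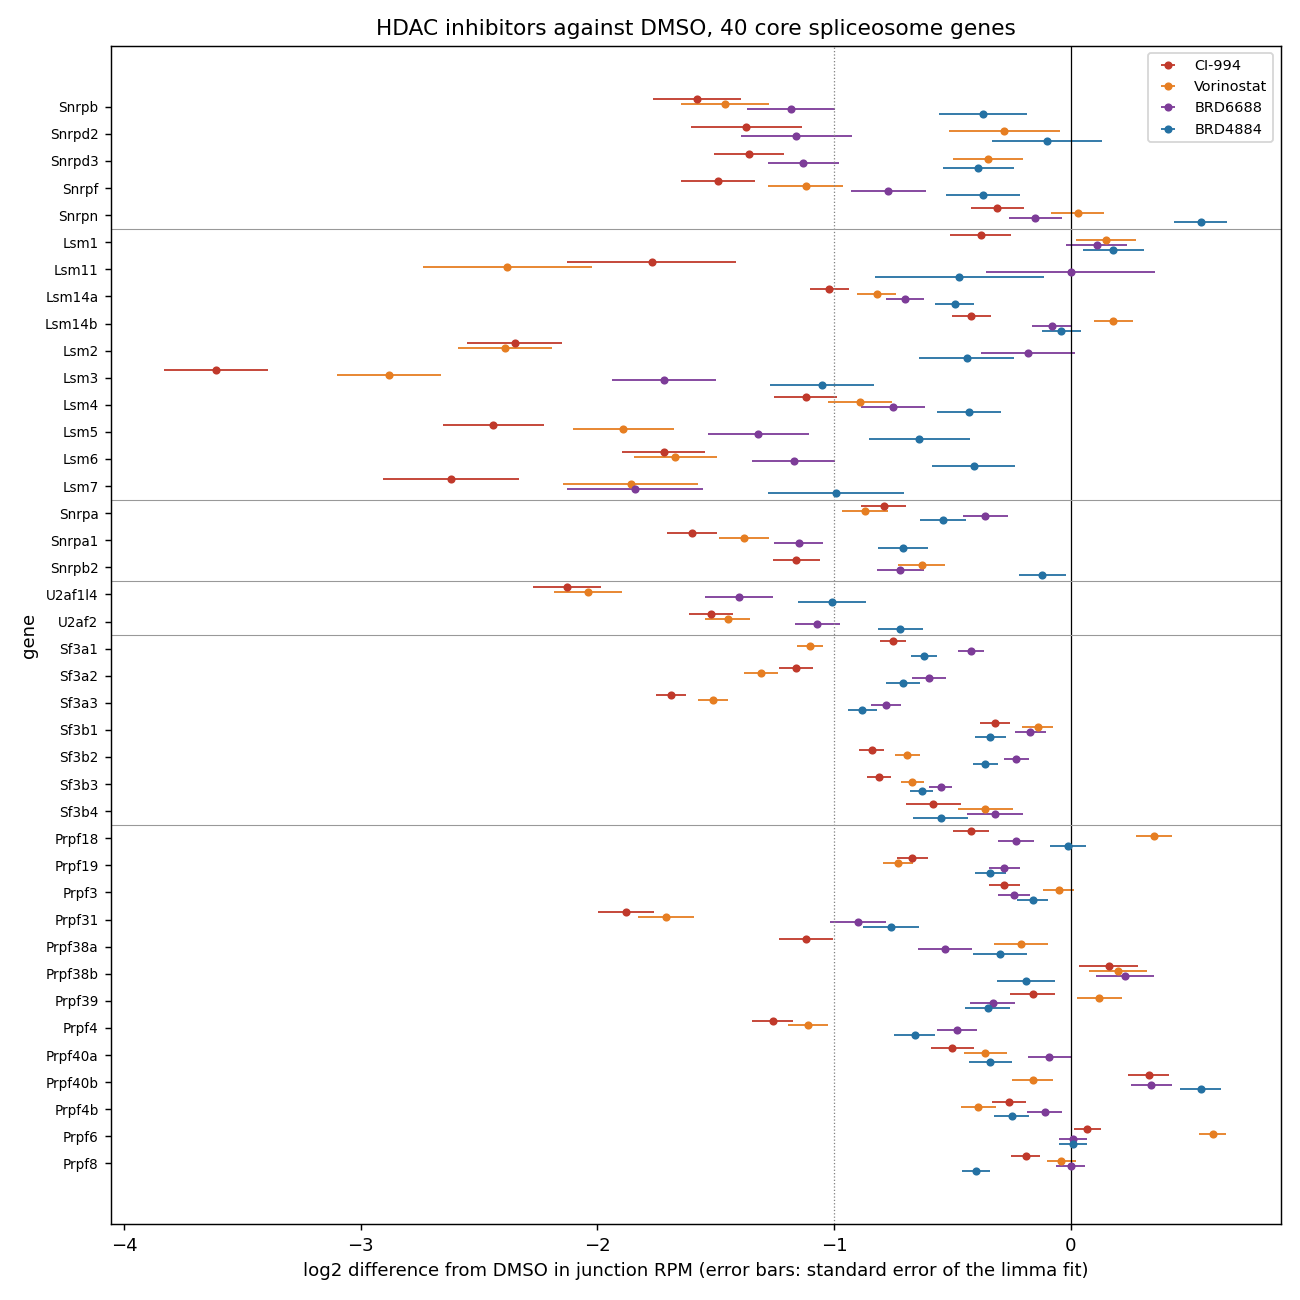
Log2 difference from DMSO in junction RPM for 40 core spliceosome genes (rows, grouped by role), with 1 point per HDAC inhibitor and horizontal bars for the standard error of the limma fit (2 libraries per compound, 3 for DMSO). The dotted line marks a 2-fold fall, which 21 genes passed with CI-994 and 2 with BRD4884.

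Among the Lsm genes, Lsm3 had 74.2, 80.7 and 84.6 junction RPM in the 3 DMSO libraries. It had 7.92 and 5.35 with CI-994, 14.8 and 7.94 with Vorinostat, 21.9 and 26.8 with BRD6688, and 39.2 and 37.9 with BRD4884. No HDAC inhibitor library overlapped DMSO, and the libraries of BRD4884 lay nearest to it. Lsm3 fell by 3.61 ± 0.22 on the log2 scale with CI-994 (SE, adjusted p = 6.59e-09, limma) and by 1.05 with BRD4884 (adjusted p = 0.00111). Lsm7 had 21.8, 23.2 and 19.9 in DMSO and 2.86 and 4.28 with CI-994 (log2 -2.62, adjusted p = 2.03e-06). Lsm2 had 44.0, 36.5 and 43.0 in DMSO, fell to 8.67 and 7.49 with CI-994 and to 8.64 and 7.09 with Vorinostat, and had 22.6 and 40.4 with BRD4884, where the replicates disagreed. Lsm5 and Lsm6 were called lower with CI-994, Vorinostat and BRD6688 as well. Lsm1, which is specific to the cytoplasmic ring, fell with CI-994 by 0.38 (adjusted p = 0.0163) and had log2 differences of 0.15 with Vorinostat, 0.11 with BRD6688 and 0.18 with BRD4884, none of which passed the test.

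Among the Sm and snRNP-specific genes, Snrpb, which encodes the Sm-B/B′ protein, had 286, 294 and 286 junction RPM in DMSO. It had 96.5 and 96.3 with CI-994, 146 and 75.8 with Vorinostat, 120 and 136 with BRD6688, and 240 and 208 with BRD4884. All HDAC inhibitor libraries were below DMSO, and the BRD4884 libraries were nearest to it (log2 -0.37, adjusted p = 0.10 by limma, against -1.58 with CI-994, adjusted p = 3.93e-06). Snrpd3, the Sm-D3 protein, had 584, 608 and 609 in DMSO. It had 222 and 247 with CI-994 and 265 and 283 with BRD6688, but 612 and 363 with Vorinostat, so that Vorinostat A lay above DMSO and Vorinostat B below it. The size of the Snrpd3 falls depended on the measure. The log2 difference was -1.36 in junction reads and -0.70 in RPKM with CI-994, and -1.13 and -0.32 with BRD6688. Snrpa1 had 151, 151 and 156 in DMSO and 49.4 and 51.6 with CI-994 (log2 -1.60). Snrpn, the neuronal Sm-N paralogue of Snrpb that shares its transcript with Snurf, went the other way with BRD4884, at 76.1 and 80.2 against 50.9, 56.7 and 52.3 in DMSO (log2 0.55, adjusted p = 8.06e-04).

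Both measured U2AF genes were called lower with CI-994, Vorinostat and BRD6688, and U2af1l4 also with BRD4884. U2af2 had 227, 231 and 237 junction RPM in DMSO, 81.3 and 80.5 with CI-994 and 141 and 141 with BRD4884. U2af1l4 had 29, 28.4 and 30.4 in DMSO, 6.24 and 7.08 with CI-994, and 14.5 and 14.6 with BRD4884. In these genes the compounds kept the same order as in Lsm3, with CI-994 and Vorinostat lowest and BRD4884 nearest to DMSO.

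SF3A and SF3B genes fell together, to different extents. The 3 SF3A genes had log2 differences of -0.75 (Sf3a1), -1.16 (Sf3a2) and -1.69 (Sf3a3) with CI-994, and the 4 measured SF3B genes lay between -0.84 (Sf3b2) and -0.32 (Sf3b1). The difference between the 2 complexes was not tested. Sf3a3, a subunit of SF3A, had 267, 261 and 269 junction RPM in DMSO, 83.6 and 81.2 with CI-994, and 143 and 145 with BRD4884. It was the gene with the smallest adjusted p of the 40 with CI-994 (6.70e-11, limma). Sf3b1 had 899, 910 and 963 in DMSO and 734 and 744 with CI-994, a small fall that passed the test (adjusted p = 4.98e-04).

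The Prp genes were divided. Prpf31 had 193, 197 and 192 junction RPM in DMSO, 51.2 and 54.2 with CI-994, 71.1 and 49.5 with Vorinostat, 98.1 and 110 with BRD6688, and 115 and 115 with BRD4884. It was below DMSO in all 8 libraries and fell by 1.88 ± 0.12 with CI-994 (SE, adjusted p = 8.33e-09, limma). Prpf4, a U4/U6 protein like Prpf31, fell by 1.26 with CI-994 and by 1.11 with Vorinostat, and Prpf38a, a factor of the spliceosomal B complex, fell by 1.12 with CI-994. Prpf6, the U5 protein that bridges to U4/U6, rose with Vorinostat, at 431 and 436 against 290, 279 and 289 in DMSO (log2 0.60, adjusted p = 5.24e-07), and had differences of 0.07 or less in size with the other compounds. Prpf18, a second-step factor, rose by 0.35 with Vorinostat and fell by 0.42 with CI-994. The rise was on the junction measure only, since its RPKM was 76.9 with Vorinostat against 77.6 in DMSO. Prpf40b, a U1-associated factor, had more junction reads with CI-994 (log2 0.33), BRD6688 (0.34) and BRD4884 (0.55). Its RPKM was 8.42 with CI-994 against 10.5 in DMSO, so its direction with CI-994 depended on the measure. For Prpf38b all 4 differences lay between -0.19 and 0.23 and none passed the test.

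BRD6688 and BRD4884, which the study lists at the same concentration, differed from each other in 12 of the 40 genes (limma, adjusted over all genes). BRD6688 was lower in 9 and higher in 3, beside 18.5% and 11.3% of all genes, so that the count of differing members was near the background. The genes lower with BRD6688 were Lsm5, Lsm6, Snrpa1, Snrpb, Snrpb2, Snrpd2, Snrpd3, Snrpn and U2af2. Snrpd2 differed most, by -1.05 ± 0.26 (SE, adjusted p = 0.0121), and Prpf8, Sf3a1 and Prpf38b were the genes that were higher with BRD6688. For Prpf31 the log2 levels relative to DMSO were -0.90 with BRD6688 and -0.76 with BRD4884 and their difference did not pass the test. Vorinostat and CI-994 were used at different concentrations and are given side by side only.

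Outside the HDAC inhibitors, 19 of 23 compounds had 0 core spliceosome genes lower by more than 2-fold in RPKM. BTB13120 had 8 (3.36% of all genes), GNF-5837 5 (5.70%), MK-1775 1 (Lsm8) and T5985871 1 (Prpf31), the last 2 beside 2.69% and 8.41% of all genes. Those of BTB13120 were Lsm3, Lsm5, Lsm7, Lsm8, Prpf31, Sf3b6, Snrpd2 and Snrpg, and those of GNF-5837 were Lsm3, Lsm5, Lsm11, Prpf4 and Snrpa1. The only rise in RPKM in any compound was Sf3b4, an RNA-binding subunit of SF3B, at 140 with T5985871 against 68.5 in DMSO (6.05% of all genes were higher with T5985871). After centring on the median gene, the falls over the 23 compounds numbered 6 in place of 15, and the rises over all 27 compounds 4 in place of 1. With BTB13120 the short genes again had the lower median over all genes (-0.78 against -0.08), and the part of length was not tested.

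For a compound with 1 library, junction reads were compared with the range of the DMSO libraries as a description, with no test. With BTB13120, 11 of the 40 genes lay at least 1.5-fold below every DMSO library, beside 7.43% of the 9917 genes with enough reads. They included Snrpb at 142 junction RPM, Snrpd3 at 276, Snrpa1 at 94.4 and Lsm7 at 6.98. In RPKM, Snrpd3 was at 270 with BTB13120 against 298 in DMSO (log2 -0.14), so its fall depended on the measure. With GNF-5837, 6 of the 40 lay that far below (8.51% of all genes), among them Lsm3 at 33.9 and Snrpa1 at 64.8. With BTB13120, 0 of the 40 lay at least 1.5-fold above every DMSO library (7.58% of all genes).

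With T5985871 the pattern was different, with 8 genes at least 1.5-fold above every DMSO library (9.92% of all genes) and 2 below (22.2%). Prpf8 had 2866 junction RPM in that library, 196% of the DMSO mean, with an exact Poisson 95% interval of 2845 to 2887. Prpf39 was at 204 (217% of the DMSO mean), Sf3b4 at 42.1 (227%), U2af2 at 424 (183%), Sf3b1 at 1556 (168%), Snrpb at 472 (163%) and Snrpa1 at 243 (159%), and Snrpb2 was the eighth. The 2 below were Prpf31 and Sf3a3, at 59.1 and 157. The median RPKM ratio of the 50 genes with T5985871 was 0.06, against -0.24 over all genes, and T5985871 and AW00693 were the compounds in which 13 and 11 of the 50 genes had their highest ratio. Intervals on single libraries cover counting error only.

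Prpf31 was low with compounds of both classes. Its junction reads were below every DMSO library in 22 of the 23 single libraries, and the exception was A-443654 at 235. The DMSO range was narrow (192 to 197), and some of these libraries were close to it, such as Crenolanib and 5-azacytidine, both at 185. In the single libraries, from 5 (5-azacytidine) to 33 (Crenolanib) of the 40 genes were below every DMSO library. The share over all genes was not taken. The lowest Prpf31 level was with T5985871 at 59.1 (30.5% of the DMSO mean), followed by AW00693 at 89.6 (46.2%), T5758020 at 105 (54.3%), T5635931 at 107 (55.0%) and BTB13120 at 121 (62.2%). In AW00693 and T5985871 it was thus far below DMSO while Snrpb was above it, at 381 and 472, and Lsm3, at 77.7 and 70.5, was within or near the DMSO range.

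**Figure D3:**
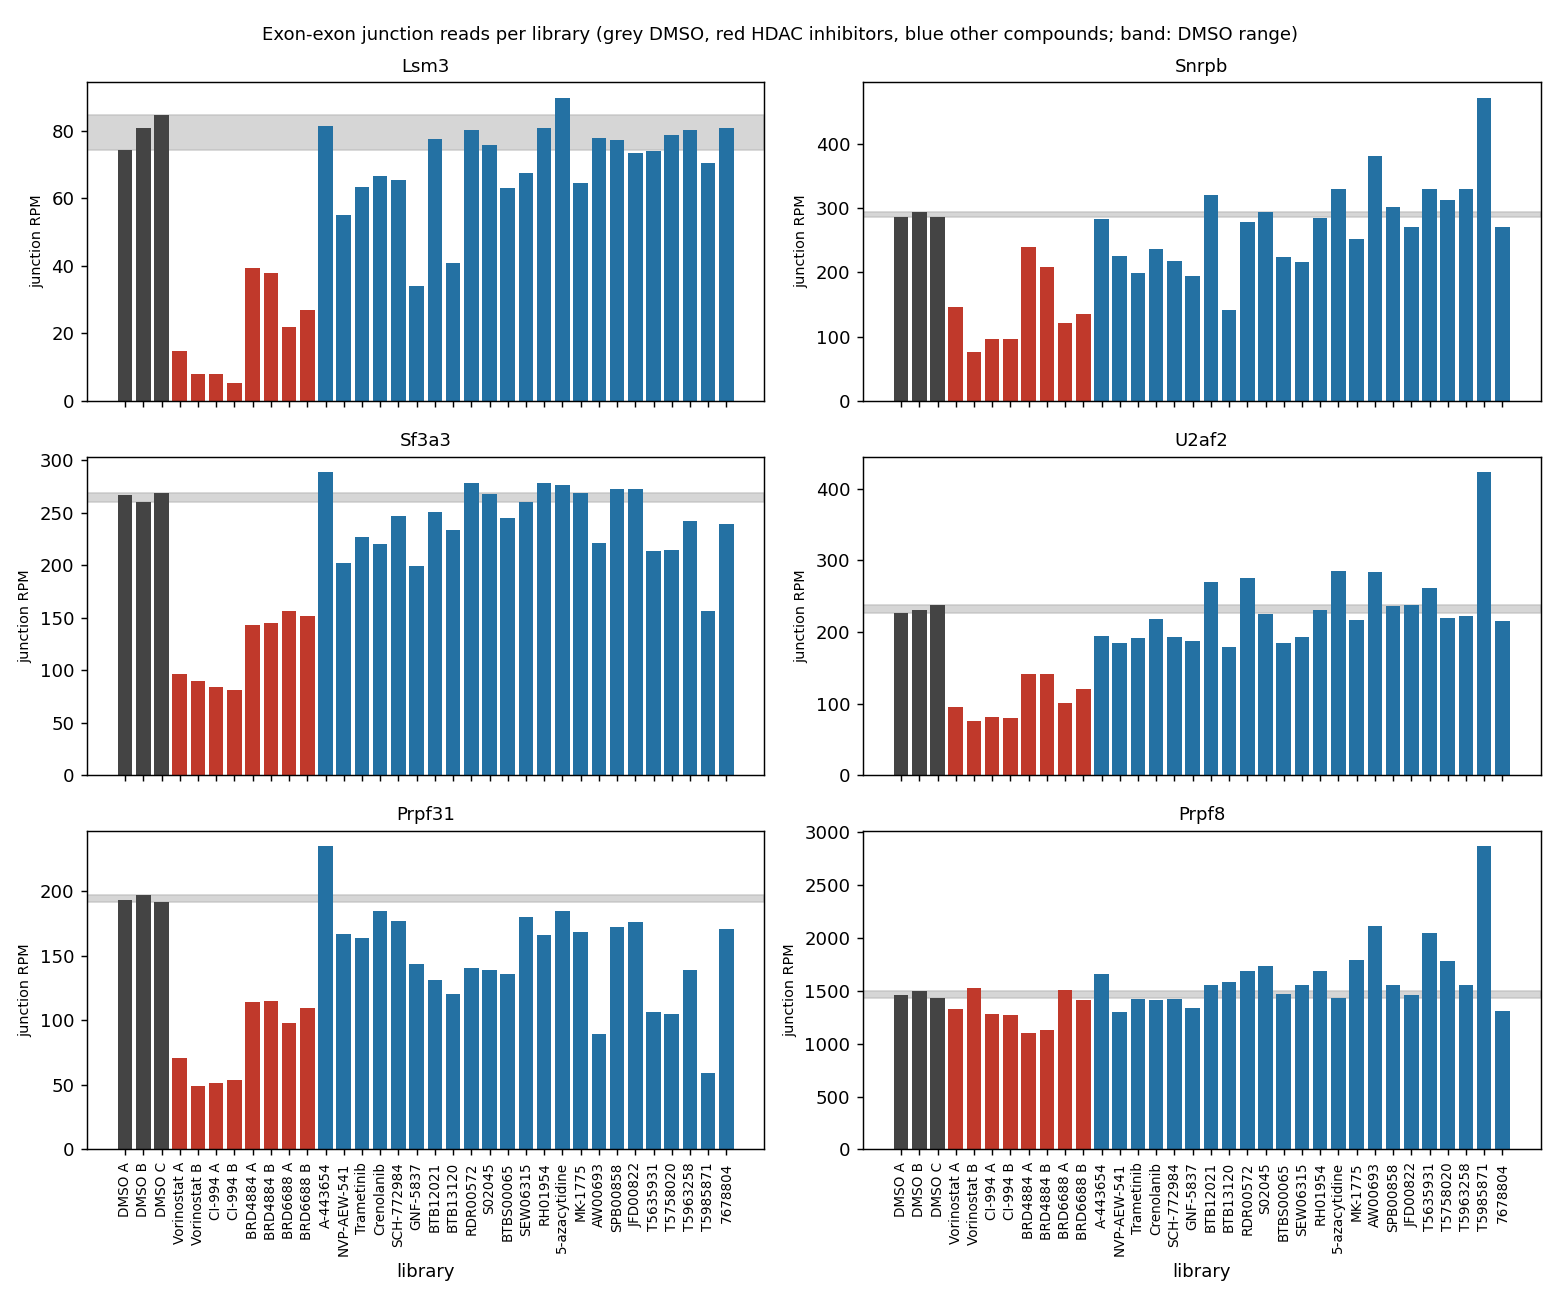
Junction RPM in each of the 34 libraries (bars) for Lsm3, Snrpb, Sf3a3, U2af2, Prpf31 and Prpf8, with grey bars for DMSO, red for HDAC inhibitors and blue for other compounds, and a grey band for the DMSO range. The HDAC inhibitor bars lie below the band for the first 5 genes, Prpf31 is also at 59.1 with T5985871, and Prpf8 reaches 2866 there.

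Other spliceosome genes were counted from a list of 56 that lie outside the symbol rule, of which 54 were above 5 RPKM in DMSO or the compound. More than 2-fold falls in RPKM were found in 22 of them with CI-994, 14 with Vorinostat, 5 with BRD6688 and 3 with BRD4884, with medians of -0.87, -0.79, -0.42 and -0.59. The shares of all genes were 26.1%, 22.5%, 6.75% and 4.42%, so the counts with Vorinostat, BRD6688 and BRD4884 were near the background. In the junction test 13 of 51 were called lower with CI-994, 10 with Vorinostat, 2 with BRD6688 and 0 with BRD4884. The shares of all genes called lower were 13.8%, 13.9%, 2.74% and 0.692%, so the counts with BRD6688 and BRD4884 were near the background. Without the fold threshold, 29 of 51 fell with BRD4884 at an adjusted p under 0.05 (limma), beside 20.6% of all genes. Of 15 genes for snRNP assembly, which include Smn1 and the Gemin genes, 5 were lower in RPKM with CI-994 and 7 with Vorinostat, where 1 was higher. The first count is near the 26.1% of all genes that were lower with CI-994. These lists hold genes of the same machinery, and their medians lay between those of the 50 genes and of all genes in CI-994 and Vorinostat.

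Splicing inside the core spliceosome genes was measured as percent spliced in (PSI), the share of junction reads that include an exon or splice site, or as the percentage of transcripts that retain an intron. Of 955 events in these genes, 718 in 44 genes could be tested in at least 1 compound: 371 introns, 195 exons, of which 4 were microexons of at most 27 nt, and 152 alternative splice sites. An event was called when it differed from DMSO by at least 10 PSI with a posterior probability above 0.95. Over the 27 compounds 40 events in 13 genes were called, with 108 calls higher and 64 lower. This was 0.575% and 0.341% of the 18795 tests, beside 0.617% and 0.586% over all events. The share was thus near the background or under it. Each DMSO library against the other 2 gave 8 calls in these genes in all, with 703 to 708 of their events tested per library. Over all events, 0.366% to 0.403% were called higher and 0.374% to 0.42% lower in these DMSO comparisons, which are far fewer than those of the 27 compounds.

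Intron retention in the core spliceosome genes was not above the background. Introns were called more retained 44 times (0.453% of tests, beside 0.464% over all introns) and less retained 12 times (0.124%, beside 0.187%), in 14 distinct introns. No microexon was called. No event at all was called in Prpf8, Sf3b1, Sf3b2, Prpf6, Snrpb or U2af2, which had 10 to 53 tested events each. The calls were concentrated in Prpf40b, with 66 calls in 13 of 35 events, and U2af1l4, with 37 calls in 7 of 13 events, which together made 103 of 172. Both are expressed at low levels among these genes, at 10.5 and 33 RPKM in DMSO, and the events named below had a median of 42 to 119 reads per library.

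The 4 replicated compounds were also tested with limma on PSI, where 73 events of these genes were among 29073 with values in all 11 libraries. For the mean of the 4 HDAC inhibitors 0 were called at an adjusted p under 0.05 and 5 PSI (beside 0.495% of all events higher and 0.127% lower), and 8 had an unadjusted p under 0.05, 11% beside 10.4% of all events. With CI-994 alone 0 were called (0.74% of all events higher and 0.179% lower), 12 had an unadjusted p under 0.05 (16.4% beside 13.6%), and 3 were called higher once CI-994 replicate B was left out. These were introns of Sf3a3 (761 nt, 10.1 PSI higher in CI-994 A) and Prpf39 (158 nt and 1209 nt, 8.14 and 5.67 PSI higher).

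The sequences of 3 exons are shown because each was called in at least 9 compounds and lies in the annotated coding sequence. Each was matched to GENCODE vM21 (GRCm38) by its length and the lengths of both flanking introns and is given from 5′ to 3′ on the plus strand, on which its gene lies. Of 15 exons called in any compound 13 could be matched. No part is in capitals because no stop codon was found in the reading frame of any of them.
Lsm14b exon of 117 nt, chr2:180028958-180029074: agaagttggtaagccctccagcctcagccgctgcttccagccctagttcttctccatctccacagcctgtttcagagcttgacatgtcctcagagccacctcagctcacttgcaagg
U2af1l4 exon of 96 nt, chr7:30564703-30564798: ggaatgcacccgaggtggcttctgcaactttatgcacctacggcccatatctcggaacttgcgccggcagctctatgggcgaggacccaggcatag
Prpf40b exon of 28 nt, chr15:99305166-99305193: acggctccgggtgcggacaccgccagct
The first and second have lengths that are multiples of 3 and keep the frame when skipped, and the third leaves a remainder of 1.

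The Lsm14b exon (chr2:179763663-179763779 in mm9, the build of the splicing table) was included at 72.2%, 73.8% and 77.4% in DMSO. In the 8 HDAC inhibitor libraries it was at 80.2% to 86.2%, above every DMSO library, and the mean of the 4 compounds was 9.56 ± 1.95 PSI higher (SE, limma, adjusted p = 0.083), which did not pass the test. By posterior it was called higher with CI-994, BRD4884, NVP-AEW-541, Trametinib, Crenolanib and GNF-5837 and lower with A-443654, MK-1775 and JFD00822. The extremes were 89.7% with GNF-5837 (95% Wilson interval 87.2 to 91.8) and 60.3% with A-443654 (56.3 to 64.5). The median coverage was 787 reads per library.

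The U2af1l4 exon (chr7:31349722-31349817 in mm9) was included at 60.9%, 71.1% and 55.1% in DMSO, so the controls themselves were far apart. It was at 90.9% and 92.9% with BRD6688 and at 86.8% and 80.9% with BRD4884, above all DMSO libraries. It was called higher in 7 compounds and lower in 6. With MK-1775 it was at 32.4% (24.8 to 41.8), the lowest of the series. U2af1l4 also had an alternative 3′ splice site called higher in 11 compounds, but there DMSO C, at 45.2%, was far from A and B, at 62.7% and 63.2%, and set the mean.

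Prpf40b had both an alternative exon and retained introns. The 28-nt exon was included at 74.3%, 86.1% and 76.8% in DMSO. It was higher with T5985871 (98.5%) and CI-994 (94.8% and 91.2%), and lower with S02045 (58.1%), MK-1775 (60.8%) and BTB12021 (63.5%). A 210-nt intron of the same gene (chr15:99145412-99145621 in mm9) was retained at 19.1%, 21.5% and 22.6% in DMSO and was called higher in 8 compounds. It reached 67.3% with RDR00572 (53.0 to 80.4, 41 reads), 56.8% with S02045, 53.8% with RH01954 and 46.0% with GNF-5837. A 214-nt intron was at 10.9%, 1.47% and 0% in DMSO and at 57.2% with RDR00572, on 26 reads.

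Prpf39, which encodes a U1-associated protein, had an exon of 100 nt (chr12:66156421-66156520 in mm9) that the annotation places only in transcripts without a full coding frame, among them nonsense-mediated decay transcripts. It was included at 14.6%, 18.9% and 15.5% in DMSO and at 23% to 35.3% in the 8 HDAC inhibitor libraries, without overlap. The mean of the 4 compounds was 12.5 ± 2.5 PSI higher (SE, limma, adjusted p = 0.0795), the smallest adjusted p of the 73 events, and it did not pass the test. Among the other compounds SPB00858 was called higher, at 29.5%. A 648-nt intron of Prpf39 (chr12:66144345-66144992 in mm9) was at 15.6%, 14.7% and 17.3% in DMSO. It was at 61.8% in CI-994 A, 40.5% in BRD6688 A, 34.8% in Vorinostat A and 32.4% in BRD4884 B, and the other library of each compound did not pass the filters.

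In Sf3b3 and Lsm2, single exons differed with several compounds classed as inhibitors of microexon inclusion. A 29-nt exon of Sf3b3 (chr8:113353419-113353447 in mm9), 2 nt above the microexon limit used here, was included at 5.03%, 4.62% and 4.62% in DMSO, with a median of 1682.5 reads per library. It was at 16.9% with T5985871 (15.1 to 18.9), 14.7% with AW00693 (13.2 to 16.3), 13.7% with T5758020 and 11.3% with T5635931, and at 6.25% to 9.36% in the HDAC inhibitor libraries. Those intervals lay above the DMSO values, but only T5985871 passed 10 PSI. A 47-nt exon of Lsm2 (chr17:35119586-35119632 in mm9) was included at 85.8%, 86.7% and 83.3% in DMSO. It was at 57.8% with T5985871 (54.8 to 60.6), 72.8% with AW00693 (69.9 to 75.7) and 74.6% with MK-1775 (71.5 to 77.4). In the HDAC inhibitor libraries it lay between 77.7% and 87.5%, overlapping DMSO, although the level of Lsm2 had fallen with CI-994 and Vorinostat.

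**Figure D4:**
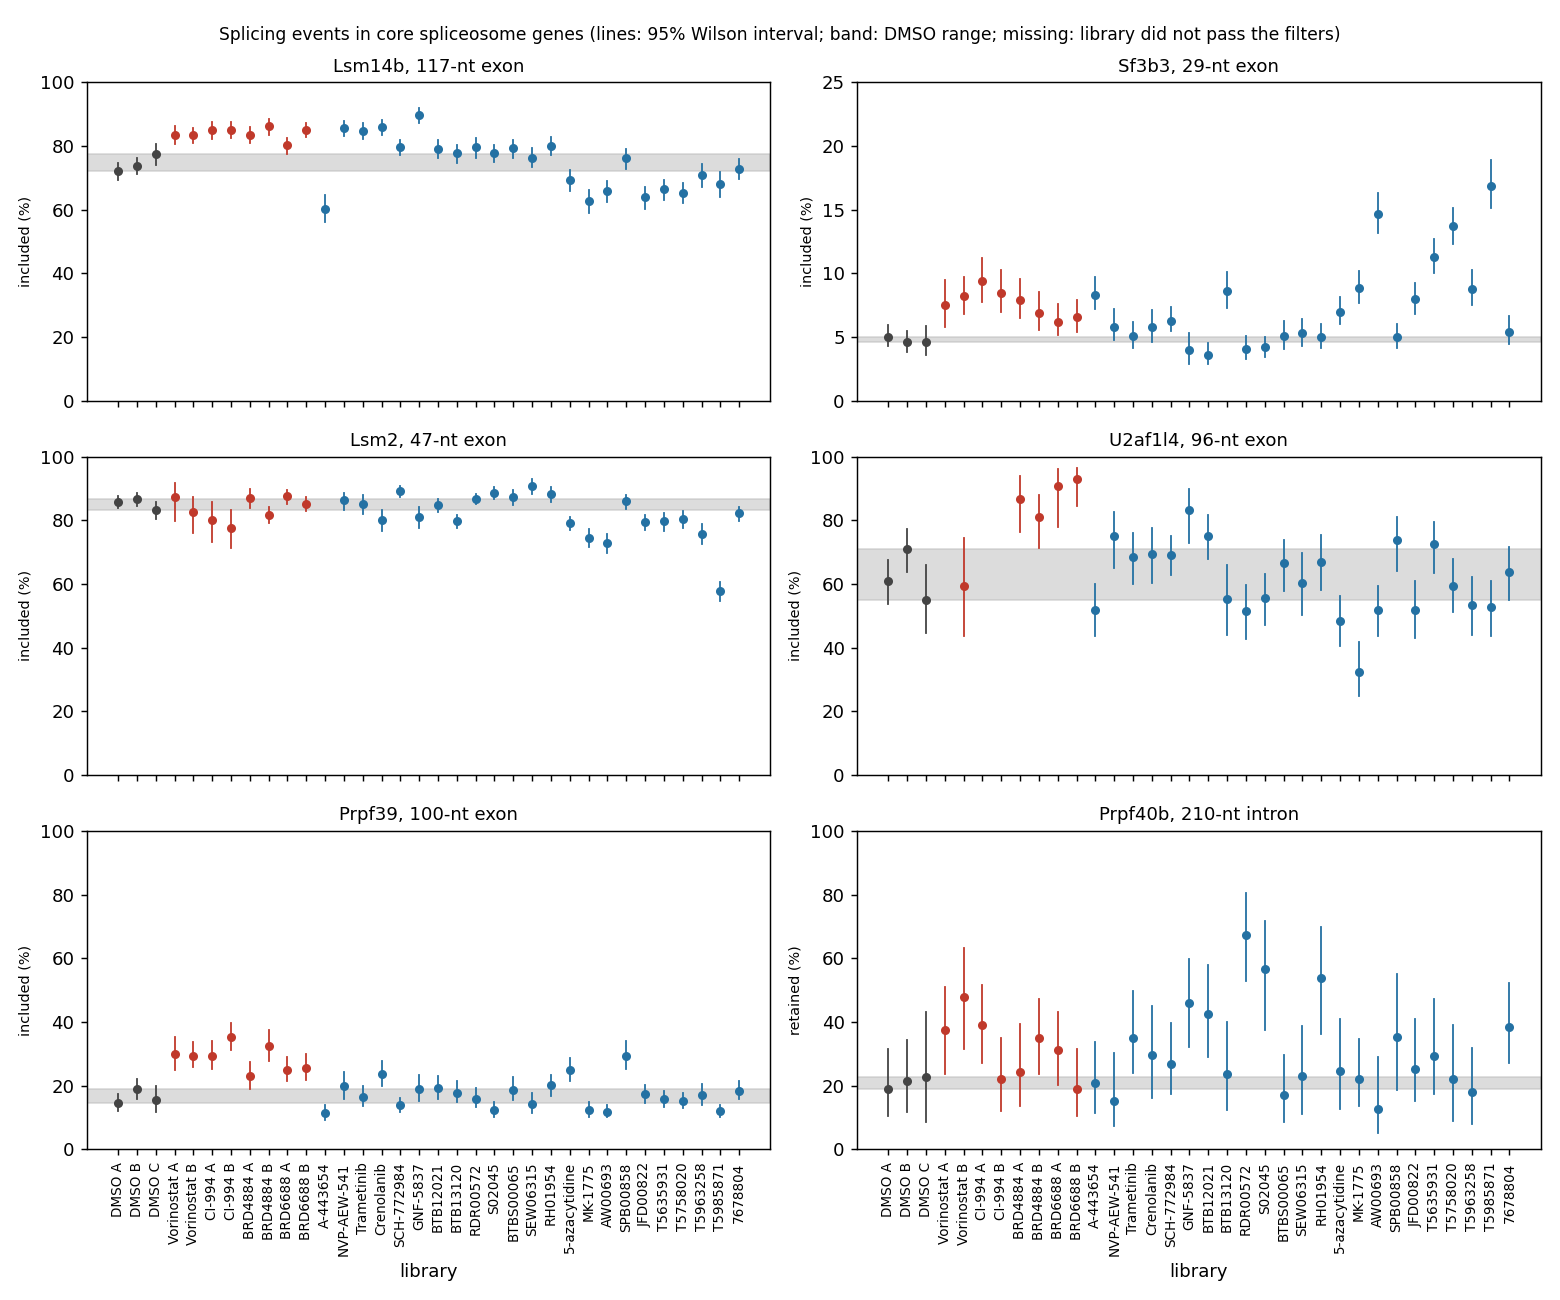
Percentage of inclusion or intron retention in each library that passed the filters, for 6 events in Lsm14b, Sf3b3, Lsm2, U2af1l4, Prpf39 and Prpf40b, with vertical lines for 95% Wilson intervals, a grey band for the DMSO range, dark grey points for DMSO, red for HDAC inhibitors and blue for other compounds. The Sf3b3 panel runs from 0 to 25% and the others from 0 to 100%, and the HDAC inhibitor points of Lsm14b and Prpf39 lie above the DMSO band.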

How the data were processed

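Splicing and gene levels were analysed in all 34 libraries, grouped by the labels; compound names came from the supplementary tables of the study. The authors ran vast-tools 2.1, which aligns reads to exon junctions, and deposited a percent spliced in value per event and library, in mm9 coordinates, with a quality string that holds the reads. The RPKM values were deposited by the authors as 1 merged value per condition, made from Salmon estimates on GENCODE vM21 transcripts (the processing notes of the submitters name Salmon 0.10.2, edgeR and mm9). A table of the authors' own comparisons and the fold changes, p-values and FDR values beside the RPKM were not used. Every value column had a sample (0 left out).

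Filters followed the methods of the study: sufficient coverage and balance, or, where the event is an intron, 15 reads or more with its balance p over 0.05. Unlike in the study, exons with a balance score recorded as na were also accepted. Calls used 2000 beta draws per library, at 10 PSI and a posterior above 0.95. RPKM ratios used a pseudocount of 0.5 and a minimum of 5 RPKM, at 2-fold, with no test. PSI of the 11 DMSO and HDAC inhibitor libraries was tested with limma 3.58.1 (5 groups, robust, trend, Benjamini-Hochberg over all events), for a mean PSI of 1 to 99, and called at an adjusted p under 0.05 and 5 PSI. The test of junction reads, with limma on log2 values (prior count 0.5, mean of at least 50 reads), and the 1.5-fold description of single libraries were added after the data had been seen, because the RPKM has no replicates. Intervals are 95% Wilson or exact Poisson. The calls and fits were first tested on simulated data. Genes were named if changed more than 2-fold in RPKM in any compound, if their range was among the 3 widest or narrowest, or if at an extreme in the 5 compounds with most event calls; events if called one way in at least 5 compounds, among the 3 largest differences, or among the 5 smallest adjusted p. Other genes and events were named after their values were seen. One of the neuroblastoma markers is not reported here, and the sum is over the others. The genes, lists and rules were chosen with earlier results of these data known. Deviations of same-lettered libraries from their group means were correlated at r of -0.183 to 0.066, so the letters were not used as pairs. Libraries with different letters were not compared in this way.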

Additional observations from a re-analysis of the deposited data

How the results depend on the processing

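Of 172 event calls, 103 lay in Prpf40b and U2af1l4, whose events had few reads; the part of depth in this was not tested. With 1 library for 23 compounds there is no replicate check. At 15 PSI, event calls over the 27 compounds became 63 higher and 12 lower (from 108 and 64), and calls among DMSO libraries 2 (from 8). Leaving out a DMSO library gave 114 to 115 higher and 54 to 62 lower. Introns called less retained numbered 34 without the balance filter and 7 at 30 reads (from 12). Over the HDAC inhibitors, leaving out replicate A or B of each compound gave 19 to 22 events higher (from 18) and 7 to 13 lower (from 8, 13 without the B libraries). Limma calls at 10 PSI gave 0 and 0. The limma event calls for CI-994 were 0 to 3 higher without each library in turn. RPKM falls summed over the HDAC inhibitors, falls over the other compounds and rises over all compounds were 82, 15 and 1, became 51, 6 and 4 when centred, and 140, 104 and 13 at 1.5-fold. In the junction test, at 1.5-fold, members called lower became 12 with BRD4884, 17 with BRD6688 and 23 for the mean of 4 compounds (from 12), and 1 was called higher with Vorinostat. With no fold threshold, 27 were lower and 2 higher with Vorinostat, 36 and 1 with CI-994, 26 and 2 with BRD4884, 29 and 1 with BRD6688, and 33 and 2 for the mean of 4. Centring gave 4 lower with BRD4884 (from 2). Leaving out each library gave 15 to 17 lower with Vorinostat, 20 to 21 with CI-994, 2 to 2 with BRD4884, 8 to 10 with BRD6688 and 11 to 13 for the mean. Of the values for single genes and events, Lsm14a with CI-994 passed 2-fold only in part, at -0.99 when centred or without CI-994 replicate A. A lone remaining library in these fits is assumed to vary like the other groups. The cause of these changes was not tested, except that fewer reads, libraries or a lower threshold were set by the alternative itself.

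With the replicate letter as a block, the pairing changed no call count of these genes: 0 events were called in any contrast, and junction reads gave 16 genes lower with Vorinostat, 21 with CI-994, 2 with BRD4884, 10 with BRD6688 and 12 for the mean of 4, and 0 higher.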
